A study of Mus musculus with 11 samples.

Results

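The cytosolic ribosomal protein genes are the genes for the proteins of the cytoplasmic ribosome. Members were all protein-coding genes whose symbol was Rps or Rpl with a number and an optional a, l, al or x, the stalk genes Rplp0, Rplp1 and Rplp2, and Rpsa. This rule took 81 of the 39017 genes in the table, 31 of the small subunit and 50 of the large subunit. Rpl6l and Rps4l have fitting symbols but are annotated as pseudogenes and were left out. RNA came from mice in which Dicer, the RNase that makes mature miRNAs, was deleted with Camk2a-Cre, a transgene that acts in forebrain excitatory neurons. The neocortex gave 3 KO libraries (males D5130, D5132 and D5133; Camk2a-Cre;Dicer flox/flox) and 3 control libraries (males D5129, D5134 and D5135). The hippocampal CA1 region gave 2 KO libraries (males D5130 and D5133) and 3 control libraries (males D5134 and D5135, female D5138). All mice were 13 to 14 weeks old, and the genotype of the controls is not given in the labels. Each library is 1 tissue of 1 animal. The tissue still holds glia, interneurons and blood vessels, which this Cre does not target, so a change in excitatory neurons is diluted in it. Fewer cells of a type and less RNA per cell cannot be told apart in such tissue.

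Ribosomal protein mRNAs are short and abundant, and cells make their proteins in matched amounts for assembly with ribosomal RNA in the nucleolus. Most of these mRNAs begin with a terminal oligopyrimidine (TOP) tract, a run of C and T that starts with a C at the first transcribed base. Through this tract, mTORC1 and the RNA-binding protein Larp1 set how much of the mRNA is translated and how stable it is. In neurons, ribosomal protein mRNAs are also found in axons and dendrites.

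The start-site sequences of 8 members are shown because such a tract is known for most of these mRNAs. They are the 6 members with the smallest p in the neocortex, with Rplp2 of the stalk and Rps6, the substrate of S6 kinase. The sequences were taken from RefSeq on GRCm38.p6 and run from 10 bases before the annotated start to 20 bases of transcribed sequence. Capitals mark the run of C and T that begins with a C and overlaps the 5 bases on either side of the annotated start. Where a gene had several windows, a window with such a run was shown if there was any. The 8 shown therefore do not stand for all members.
Rpl35 (chr2:39005112-39005141, minus strand): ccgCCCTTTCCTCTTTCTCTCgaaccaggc
Rpl39 (chrX:37085203-37085232, minus strand): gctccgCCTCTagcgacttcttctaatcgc
Rps21 (chr2:180257369-180257398, plus strand): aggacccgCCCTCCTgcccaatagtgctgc
Rpl14 (chr9:120571507-120571536, plus strand): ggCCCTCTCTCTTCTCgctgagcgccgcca
Rpl13a (chr7:45128726-45128755, minus strand): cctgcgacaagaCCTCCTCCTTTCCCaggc
Rpl38 (chr11:114668570-114668599, plus strand): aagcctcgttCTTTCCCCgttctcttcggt
Rplp2 (chr7:141447641-141447670, plus strand): cagcgtCTTCCTTTCgccgccggacgccgc
Rps6 (chr4:86857348-86857377, minus strand): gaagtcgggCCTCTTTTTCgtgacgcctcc
The marked run was 18 bases long in Rpl35, 14 in Rpl14 and Rpl13a, 10 in Rps6, 9 in Rplp2, 8 in Rpl38, 7 in Rps21 and 5 in Rpl39. A start sequence was given for 61 of the 81 members, in 73 windows. Each gene was counted if any of its windows held a run. A run of at least 5 bases of this kind, on the gene's own strand, was found in 32 of those 61 members (52.5%) and in 28% of the 26964 other genes. The annotated start can lie some bases from the one used in these tissues, so a missing run says only that these letters are not in this window.

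Gene counts per library ranged from 43144097 to 58329441 in the neocortex and from 24806581 to 35684618 in the CA1. The 81 members together took between 118324 and 284806 of these counts. Neocortex marker genes summed to 2022 to 2145 CPM (gene reads scaled to a common library size) in neocortex KO libraries and 2199 to 2286 CPM in neocortex controls, and none of the 7 was at 0. The 6 CA1 markers in the table summed to 327.6 to 358.8 CPM in CA1 KO libraries and 522.1 to 598.8 CPM in CA1 controls. Dicer1 (chr12:104687742-104751952) had 63.3, 59.0 and 60.6 CPM in neocortex KO libraries and 66.5, 59.3 and 62.4 CPM in controls. In the CA1 it had 73.4 and 71.6 CPM in KO libraries and 74.0, 68.7 and 75.2 CPM in controls. A count over the whole gene does not separate the floxed part, so Dicer1 does not check the genotype labels here. Control D5134, labelled male, held Y-linked genes at 40.8% (neocortex) and 42.7% (CA1) of the median of the other neocortex libraries. The CA1 KO library of D5133, labelled male, held 20.9 CPM of Xist, against 0.73 CPM in the other KO library, at most 3.27 CPM in male controls and 610 CPM in the female control.

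The share of reads on ribosomal protein genes was close in KO and control tissue. In the neocortex the share was 0.493% in D5130, 0.505% in D5132 and 0.488% in D5133 among KO libraries, against 0.506% in D5129, 0.572% in D5134 and 0.493% in D5135 among controls. KO D5132 lay within the range of the controls, KO D5130 and D5133 lay just below its lower end, and control D5134 lay above all others. The KO mean was 0.945 times the control mean. In the CA1 the share was 0.493% and 0.477% in KO libraries D5130 and D5133, against 0.478%, 0.440% and 0.494% in controls D5134, D5135 and D5138. Here the groups overlapped, and the KO mean was 1.03 times the control mean. Small subunit genes took 0.214% to 0.222% in neocortex KO libraries and 0.218% to 0.248% in neocortex controls. Large subunit genes took 0.274% to 0.283% and 0.275% to 0.324% in the same 2 groups.

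**Figure D1:**
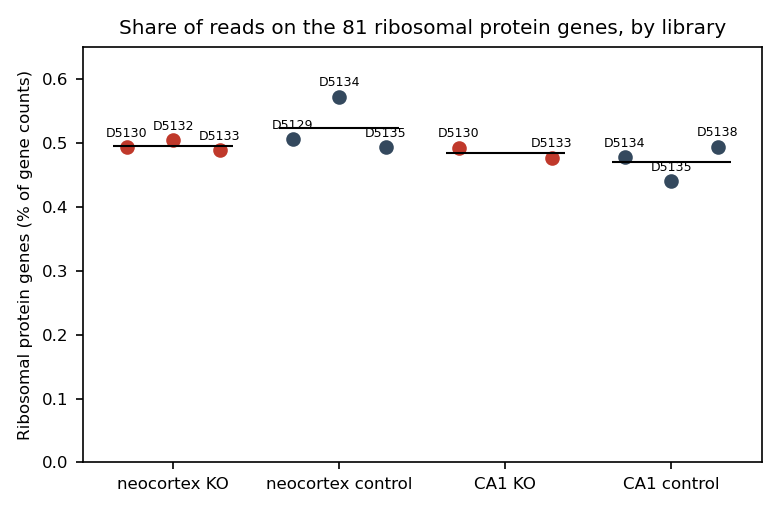
Percent of gene counts on the 81 ribosomal protein genes (y axis) in each library, with KO groups in red left of control groups in dark blue in each tissue, animal names beside points and lines at group means. The neocortex control D5134, at 0.572%, stands above the other 10 libraries, which lie between 0.440% and 0.506%.

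In the neocortex, 79 members had enough reads for the test, and none passed it. By edgeR's quasi-likelihood test with Benjamini-Hochberg adjustment at 0.05, 0 members were higher and 0 lower in KO neocortex. Over all 16971 genes tested, 1.51% were called higher and 1.2% lower. At an unadjusted p under 0.05, edgeR had 6 of 79 members, all lower in KO. Beside them, 1531 of 16971 genes (9.02%) were lower and 1518 higher at that p. DESeq2 called 0 members and had 7 below that unadjusted level. The median log2 fold change of the members was -0.07, with 69 of 79 below 0, beside a median of 0.00 over all genes, with 8392 of 16971 below 0. Small subunit genes had a median of -0.08 (29 of 31 below 0) and large subunit genes a median of -0.07 (40 of 48 below 0). These values depended on 1 control library. Control D5134 was the highest library for 66 of the 79 members, against 24.7% of all genes, and without it the members' median was -0.000925. Scaled by the ERCC spike-in RNAs, the members' median was 0.925 beside 1.06 for all genes. These RNAs took 0.268%, 0.169% and 0.113% of all counts in KO libraries D5130, D5132 and D5133. They took 0.686%, 0.189% and 0.445% in controls D5129, D5134 and D5135. The shares overlapped between the groups and varied widely within each, and the amount of RNA per tissue was not tested.

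In that library the other short genes were high as well. Its protein-coding genes whose longest transcript was under 1000 bases had a median deviation of 0.15. This was on the log2 scale, from their mean over the 6 neocortex libraries. Those of 4000 bases or more had a median of -0.08. The members' median in D5134 was 0.18. Over coding genes grouped by longest transcript, the neocortex KO effect had a median of -0.11 under 1000 bases and 0.05 from 4000 bases up. Without D5134 these medians were -0.05 and 0.02. With each library's trend on the length of all exons taken out, the members' median was -0.03. That length can far exceed the transcript. It was 4685 bases for Rps19, whose longest transcript has 2657. This fit therefore does not take out the trend on transcript length. The neocortex libraries were also split into 2 ERCC sets by clustering their own ERCC counts. No label gives these sets, so they are not a recorded batch. Within the 3 libraries of ERCC set 1 (KO D5130 and D5132, control D5129) the members' median was -0.02, and within set 2 (KO D5133, controls D5134 and D5135) it was -0.13. The part that gene length, the ERCC set or the low Y-linked level of D5134 plays in the members' values was not tested beyond these fits.

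**Figure D2:**
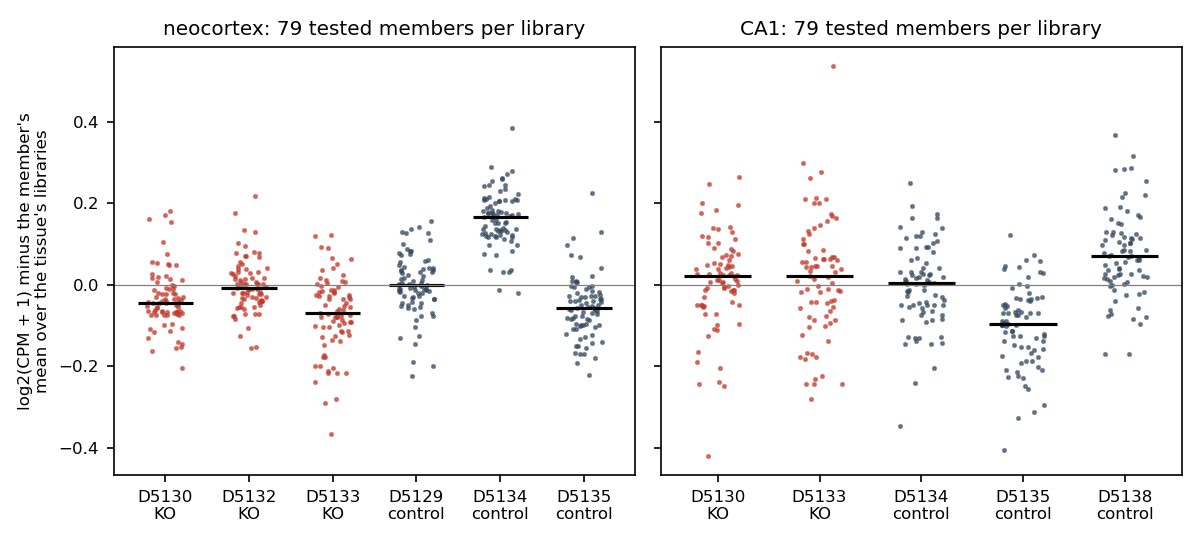
Deviation of each of 79 tested members in each library from its mean over the tissue's libraries (y axis, log2 of CPM plus 1), with KO libraries in red left of controls in dark blue and bars at the median. In the neocortex the bar of control D5134 is at 0.165 and those of the other libraries lie between -0.07 and 0.00. In the CA1 the bar of control D5135 is lowest at -0.10.

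The 6 members with the smallest p in the neocortex were all large subunit genes but 1, and all were lower in KO without passing the adjusted test. Rpl35 (ENSMUSG00000062997, chr2:39001580-39005624), a protein near the exit of the peptide tunnel, had 21.2, 19.7 and 19.4 CPM in KO libraries D5130, D5132 and D5133, against 24.2, 27.1 and 21.6 CPM in controls D5129, D5134 and D5135. All 3 KO libraries were below all 3 controls, by a narrow margin against D5135. The log2 ratio of KO to control was -0.27 ± 0.09 (SE, n = 3 each; adjusted p = 0.129 by edgeR), and -0.19 without D5134. Rpl39 (chrX:37082520-37085402), a very small protein that lines the tunnel, had 38.8, 42.2 and 39.8 CPM in KO libraries, against 45.8, 50.1 and 43.4 CPM in controls. Again the groups did not overlap, and the log2 ratio was -0.21 ± 0.07 (SE; adjusted p = 0.140 by edgeR). Rps21 (chr2:180257377-180258445), the small subunit gene among the 6, had 146, 143 and 138 CPM in KO libraries, against 157, 175 and 150 CPM in controls. It also showed no overlap, at -0.17 ± 0.06 (SE; edgeR adjusted p = 0.153).

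The large subunit genes Rpl14, Rpl13a and Rpl38 followed with log2 fold changes of -0.20, -0.15 and -0.21 and edgeR adjusted p of 0.173, 0.205 and 0.263. Rpl38 is known in the mouse embryo for its part in translating Hox mRNAs. It had 21.1, 20.2 and 18.2 CPM in KO neocortex and 20.7, 25.5 and 22.4 CPM in controls, so its groups overlapped. In all, 8 members had every KO library below every control, among them Rpl14, Rpl27a, Rpl35, Rpl39, Rps7, Rps15a and Rps21. That is 10.1% of the members tested, beside 12.4% of all genes. No member had every KO library above every control, beside 11.6% of all genes.

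Under TMM scaling, which sets each gene relative to all others, most members had narrow intervals. Scaled by the ERCC RNAs, the members' neocortex median was 0.925, beside 1.06 for all genes, and the intervals given here do not cover that scaling. In the neocortex, the 95% interval of the KO effect lay within 1.5-fold in either direction for 75 of 79 members. Rpl4 is an example, a large subunit protein with a long arm into the tunnel and among the most read members. It had 434, 436 and 443 CPM in KO libraries and 450, 504 and 418 CPM in controls, an interval on the log2 scale from -0.20 to 0.07. The least bounded was Rpl3l, with 8 to 26 reads in KO libraries and 14 to 24 in controls and an interval from -1.52 to 0.55.

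**Figure D3:**
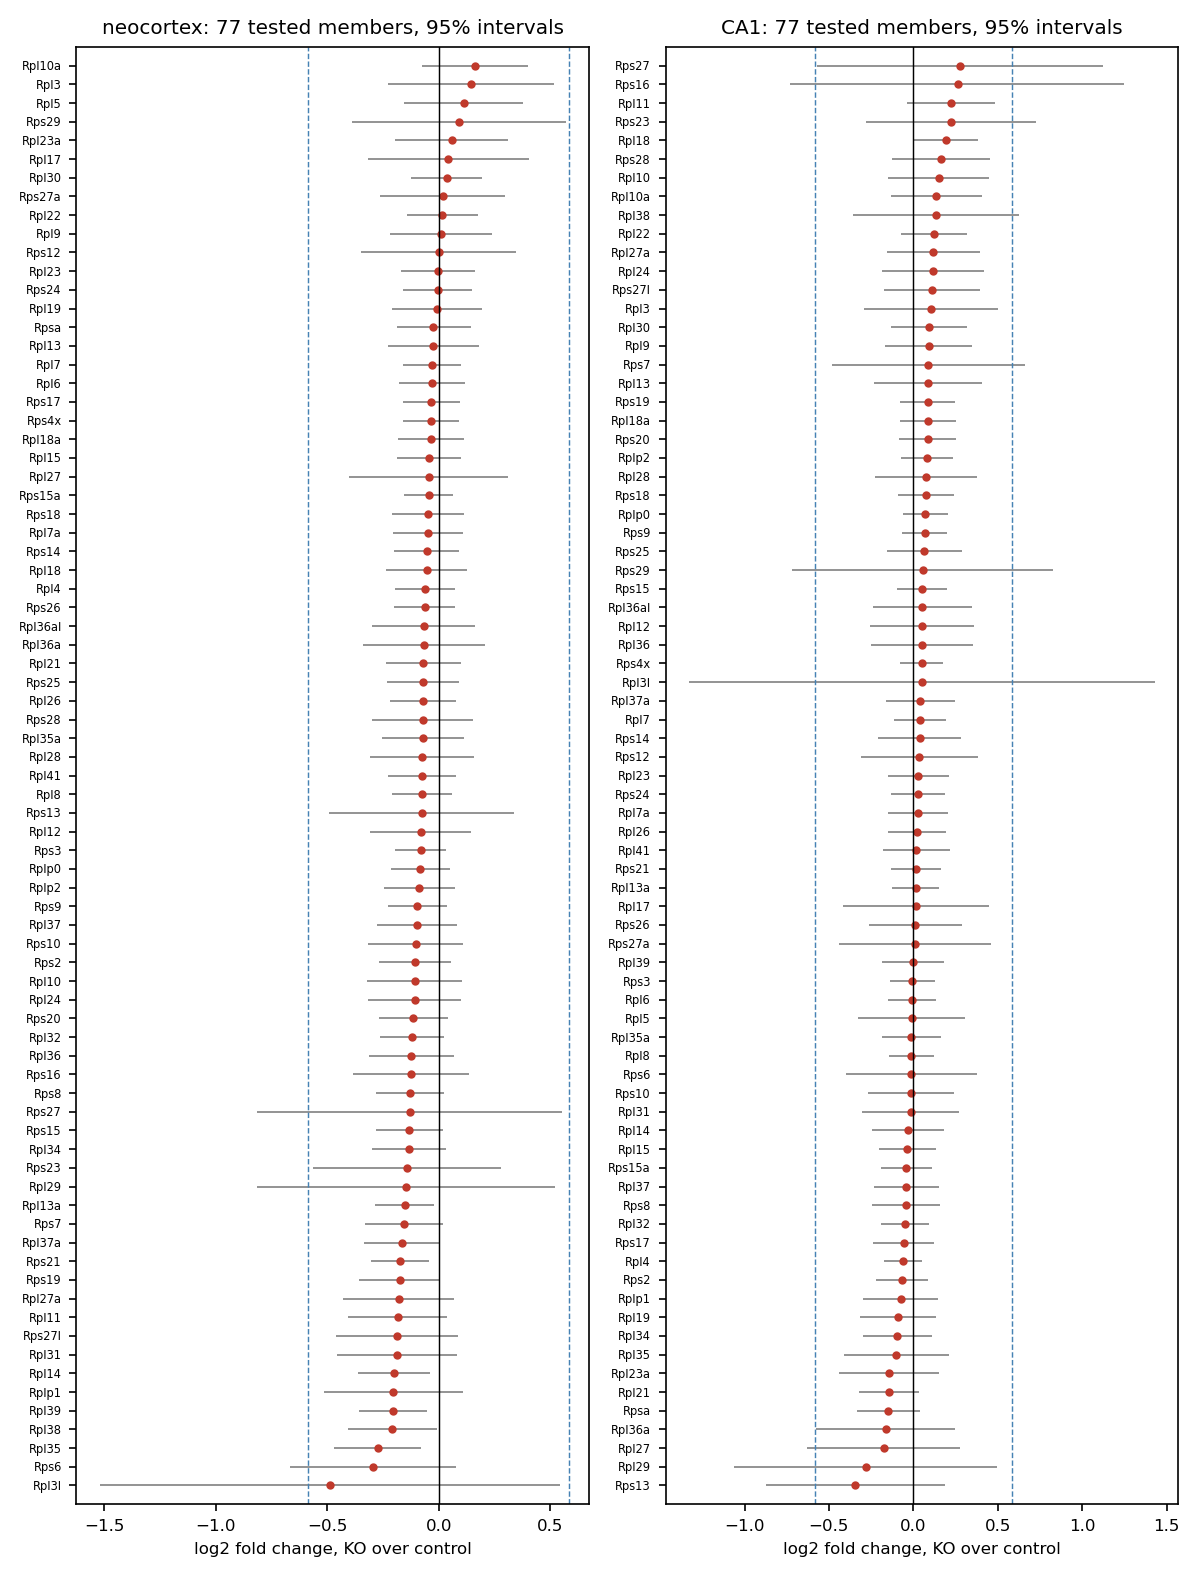
Log2 fold change of KO over control under TMM scaling for 77 of the 79 tested members (red points) with its 95% interval (grey), ordered by value, in the neocortex (left) and the CA1 (right). Blue dashed lines mark 1.5-fold in either direction, and the intervals of 73 neocortex and 67 CA1 members drawn lie between them.

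In the CA1 the members likewise did not pass the test, and the median lay on the other side of 0. EdgeR called 0 of 79 members higher and 0 lower, beside 2.47% and 1.41% of the 18274 genes tested. At an unadjusted p under 0.05 it had 1 of 79 members, Rpl18, higher in KO, beside 1737 of 18274 genes higher and 1422 lower. DESeq2 called 0 members and had 0 at that level. The members' median log2 fold change was 0.03, with 49 of 79 above 0, beside a median of 0.00 over all genes, and it was -0.02 without control D5135. That control was the lowest library for 48 of 79 members, against 19.8% of all genes. Every KO library was above every control for 7 members (8.86%; among them Rpl10, Rpl11, Rplp0, Rps4x, Rps9 and Rps27l), beside 17.4% of all genes. The opposite held for Rpl23a alone, or 1.27%, beside 16.3% of all genes.

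Rpl18 (chr7:45715457-45720836), a large subunit protein, had 44.3 and 50.2 CPM in CA1 KO libraries D5130 and D5133, against 39.7, 39.2 and 45.1 CPM in controls D5134, D5135 and D5138. The groups overlapped by the lower KO and the highest control library, and the log2 ratio was 0.19 ± 0.09 (SE, n = 2 and 3; adjusted p = 0.283 by edgeR). Without KO D5133 it was 0.09. Rpl11 (chr4:136028265-136053428), which with Rpl5 and 5S rRNA can bind the p53 regulator Mdm2, had 14.85 and 14.98 CPM in KO libraries and 14.53, 11.92 and 11.97 CPM in controls. The KO libraries lay just above the highest control, and the log2 ratio was 0.22 ± 0.12 (SE; adjusted p = 0.382 by edgeR). Its partner Rpl5 had 10.2 and 12.9 CPM in KO libraries and 12.6, 9.83 and 12.4 CPM in controls. Other members with small p were Rpl21 at -0.14, Rpsa at -0.15 and Rps13 at -0.34, with edgeR adjusted p between 0.413 and 0.538. Intervals lay within 1.5-fold for 69 of 79 members.

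The KO effect in the CA1 minus that in the neocortex was tested in 1 fit over the 11 libraries. EdgeR called 0 of 79 members in either direction, beside 0.0571% of 19256 genes called with a higher and 0.0364% with a lower value in the CA1. At an unadjusted p under 0.05 there were 2 of 79 members by edgeR, Rpl11 and Rps19, both with a higher value in the CA1. Over all 19256 genes, 957 were higher and 874 lower at that p. DESeq2 had 1 member at that p and called 0. The members' median difference was 0.09 on the log2 scale, with 64 of 79 above 0, against 0.01 and 9855 of 19256 over all genes. It was 0.00832 without animal D5134 in both tissues, and 0.18 with animal as a block. Rpl11 had the smallest p, with a difference of 0.41 ± 0.16 (SE; edgeR adjusted p = 0.412). Its levels in the neocortex were 12.1, 13.8 and 12.6 CPM in KO libraries and 14.5, 16.3 and 13.0 CPM in controls.

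**Figure D4:**
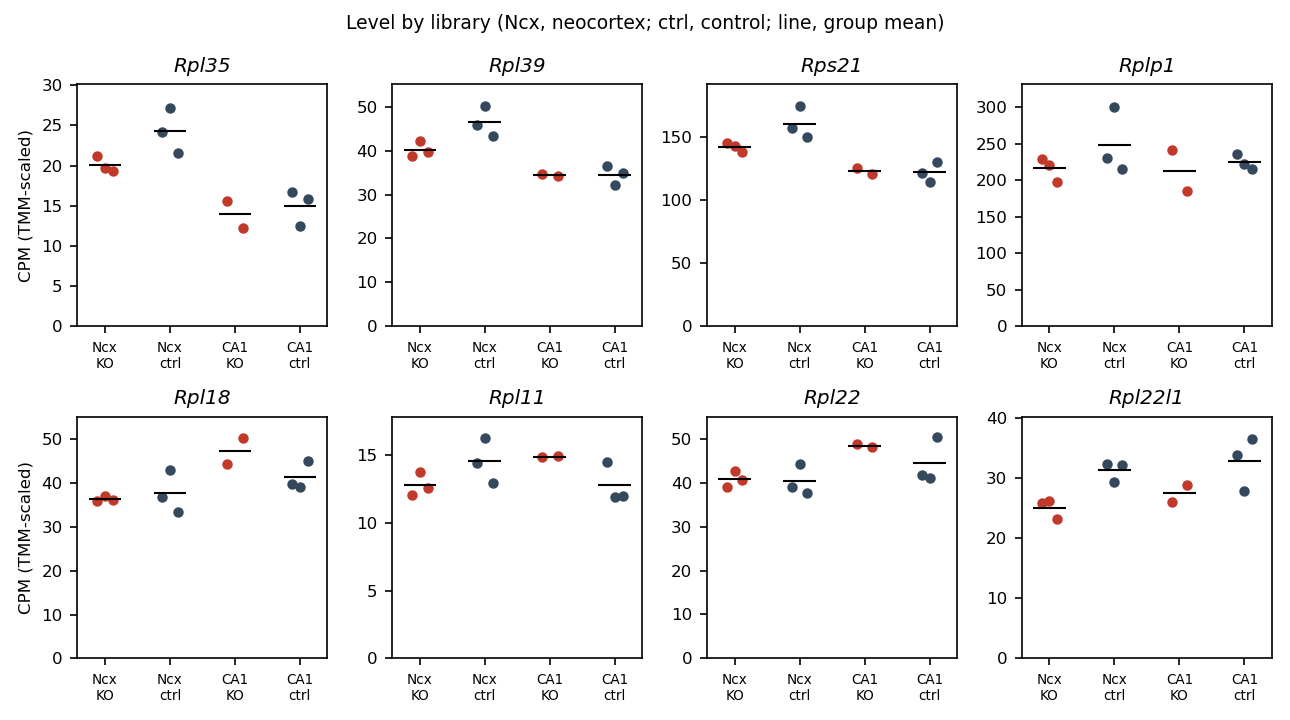
CPM with TMM scaling (y axes from 0) in each library for 7 members and for Rpl22l1, with KO groups in red left of controls in dark blue, neocortex (Ncx) left of CA1, and lines at group means. Rpl35, Rpl39 and Rps21 have all neocortex KO points below all neocortex control points, and Rpl22l1 does too, at 23.1 to 26.2 CPM against 29.4 to 32.3 CPM.

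Rpl22l1 (ENSMUSG00000039221, chr3:28805436-28807424), a near relative of Rpl22 whose symbol falls outside the rule, was lower in KO neocortex. In the mouse, Rpl22 protein is known to hold Rpl22l1 mRNA down. Rpl22l1 had 25.9, 26.2 and 23.1 CPM in neocortex KO libraries, against 32.3, 29.4 and 32.3 CPM in controls. The groups did not overlap, and the log2 ratio was -0.32 ± 0.08 (SE; adjusted p = 0.0435 by edgeR). The call is close to the threshold. With 1 library left out in turn its adjusted p by edgeR ran from 0.0315 to 0.244 and passed only without D5134. With the trend on the length of all exons removed, the adjusted p was 0.0921. In the CA1 it had 26.0 and 28.9 CPM in KO libraries and 34.0, 27.9 and 36.6 CPM in controls (-0.26 ± 0.11; edgeR adjusted p = 0.255). The 2 tissues' effects differed by 0.07 ± 0.14 (SE; edgeR adjusted p = 0.942). Rpl22 itself had 39.1, 42.6 and 40.6 CPM in neocortex KO libraries and 39.0, 44.3 and 37.7 CPM in controls, with a log2 fold change of 0.02 ± 0.07. In the CA1 it had 48.9 and 48.1 CPM in KO libraries and 41.9, 41.2 and 50.4 CPM in controls (0.12 ± 0.09).

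A further 5 genes outside the rule did not pass in either tissue, with log2 fold changes between -0.18 and 0.03. They are Rps3a1, a small subunit protein, Fau, which encodes a ribosomal protein fused to a ubiquitin-like sequence, Rack1, a signalling scaffold on the small subunit, Rpl7l1, and Rsl24d1, an assembly factor. Rps3a1 had 89.3, 89.3 and 87.2 CPM in neocortex KO libraries and 93.2, 96.3 and 86.8 CPM in controls. Rack1 had 188, 199 and 190 CPM in KO libraries and 181, 209 and 178 CPM in controls.

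The stalk genes, whose proteins recruit elongation factors to the large subunit, gave no call. Rplp1 (chr9:61913284-61914542), the member with the most reads per kilobase of exon, had 229, 221 and 198 CPM in neocortex KO libraries and 230, 301 and 215 CPM in controls, and the highest control, D5134, set the distance between the means. The log2 ratio was -0.20 ± 0.13 (SE; adjusted p = 0.495 by edgeR), and in the CA1 it was -0.08 ± 0.10. Rplp0 and Rplp2 were at -0.08 and -0.09 in the neocortex and at 0.07 and 0.08 in the CA1. Rps6 had 3.74, 3.45 and 2.55 CPM in neocortex KO libraries and 4.04, 3.54 and 4.34 CPM in controls (-0.30 ± 0.17), and -0.01 in the CA1. Rpsa, which is also a laminin receptor, and the ubiquitin fusion gene Rps27a were at -0.02 and 0.02 in the neocortex.

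Members were read at very different depths although their proteins occur in matched amounts in the ribosome. Per kilobase of the principal transcript, mean levels of 78 tested members spanned 398-fold in the neocortex and 241-fold in the CA1. With Rpl3l, the muscle paralogue read at the lowest level, the span was 1890-fold and 1590-fold. The order was nearly the same in both tissues, with a Spearman correlation of 0.993 over 79 members, which were read in libraries of 2 kits by the same counting. Per kilobase of all exons, the highest in the neocortex were Rplp1 at 466 CPM, Rps15 at 380, Rpl4 at 223, Rps21 at 187 and Rpl8 at 183. In the CA1 the highest included Rplp1 at 440, Rps15 at 299, Rpl4 at 227 and Rpl8 at 166. The lowest were Rpl3l at 0.212 and 0.231 CPM per kilobase in the neocortex and the CA1, Rps27 at 0.477 and 0.752, and Rps13 at 0.733 and 0.826.

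Several members with low counts share nearly all their sequence with other genes. For each member, the 50-base windows of its principal transcript that occur in no other annotated gene were counted. Only 1.35% of the windows of Rps27 were its own, 14.4% of those of Rpl3, 15.4% of Rps6 and 17.04% of Rps13, against 83.6% for Rpl4. Levels per kilobase of principal transcript were here taken in control libraries only. The 18 members with under 20% had a median of 16.6 CPM in the neocortex and 15.4 in the CA1. The 10 with at least 80% had 73.4 and 61.5. Across the 79 members the Spearman correlation of this control level with the share of own windows was 0.322 in the neocortex and 0.318 in the CA1. This is a weak relation over genes that are not independent. How the authors' counting treated reads that match several genes is not given in the sources used here, so levels of members with little sequence of their own are uncertain. The annotated ribosomal protein pseudogenes, 239 in the table, took 0.0172% to 0.0201% of the counts of a library. Over the 10 members with at least 80%, the median KO effect was -0.07 in the neocortex and 0.01 in the CA1.

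**Figure D5:**
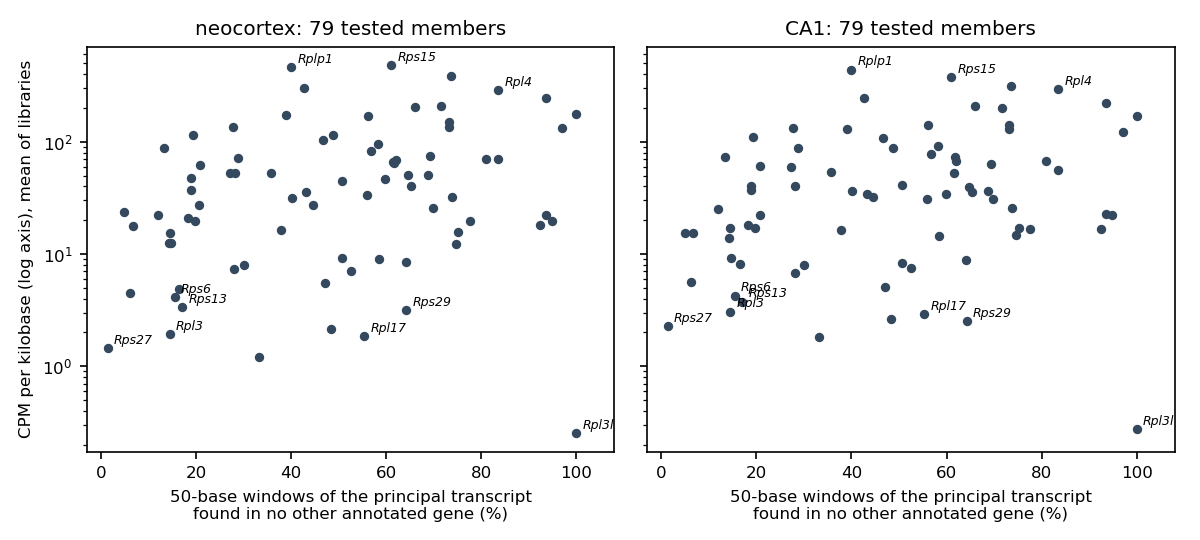
Mean level of each of the 79 tested members (y axis, CPM per kilobase of principal transcript, log axis) against the percent of its 50-base windows found in no other annotated gene (x axis), in the neocortex (left) and the CA1 (right), as means of all libraries of a tissue. Rps27, with 1.35% of windows of its own, lies low at 1.44 and 2.27, and the muscle paralogue Rpl3l lies lowest at 100%.

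The paralogues Rpl10l, Rpl39l and Rpl3l, known from other tissues, were at or near 0. Rpl10l, a testis relative of Rpl10, had 0 reads in all 11 libraries, which allows up to 3 reads in each. Rpl39l, also known from testis, had 6 to 10 reads in neocortex KO libraries and 2 to 10 in controls, and 4 and 5 reads in CA1 KO libraries and 2 to 6 in controls. These 2 were the members that could not be tested. Rpl3l, known from heart and skeletal muscle, had 0.225, 0.513 and 0.137 CPM in neocortex KO libraries and 0.447, 0.468 and 0.295 CPM in controls. Its partner Rpl3 had 3.08, 2.80 and 2.41 CPM in KO libraries and 2.18, 2.72 and 2.61 CPM in controls. Rps27l, a relative of Rps27 known as a p53 target, had 8.68, 10.4 and 8.57 CPM in KO neocortex and 8.89, 11.8 and 10.8 CPM in controls. CA1 levels were 8.86 and 8.69 CPM in KO libraries and 8.59, 7.89 and 7.93 CPM in controls, or 0.11 ± 0.13 on the log2 scale (SE; adjusted p = 0.743 by edgeR). Rpl36al and its partner Rpl36a were both at -0.07 in the neocortex, and at 0.05 and -0.16 in the CA1. Rpl10 and Rps4x were at -0.11 and -0.04 in the neocortex and at 0.15 and 0.05 in the CA1, and Rpl26 was at -0.07 and 0.02. None of these passed the test.

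In the CA1, KO D5133 and control D5138 were high together for many members. Both libraries were above the other 3 for 26 of 79 members (32.9%), beside 7.85% of all genes. These were 13 of 31 small subunit genes (41.9%) and 13 of 48 large subunit genes (27.1%). Both exceeded the others by over 1.2-fold for 4 members (5.06%), beside 1.17% of all genes. The 4 were the small subunit genes Rps7, Rps16, Rps27a and Rps29. Rps16 had 12.9 CPM in KO D5130 and 22.8 CPM in KO D5133, against 13.3, 11.4 and 19.5 CPM in controls D5134, D5135 and D5138. Rps7 had 30.0 and 42.4 CPM in the KO libraries, against 31.0, 28.6 and 42.1 CPM in the controls. The ratio of large to small subunit reads was 1.192 in KO D5133 and 1.215 in control D5138, and between 1.28 and 1.29 in the other 3 CA1 libraries. This split runs across genotype. It was described after the values were seen, and the part that the Xist level of KO D5133 plays in it was not tested.

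The genes around the ribosome gave 3 calls in all, Rpl22l1 included, out of 7 genes outside the rule and 172 on other lists. Of 23 translation factors and other TOP mRNAs, 0 were called in the neocortex, where the smallest p belonged to Eif3h, Eef1a2 and Nap1l1 (-0.15, -0.12 and 0.14), and 1 was higher in the CA1. That gene was Vim, the intermediate filament vimentin of glia and vessels, with 41.3 and 44.0 CPM in CA1 KO libraries and 29.6, 31.4 and 25.4 CPM in controls. Its log2 ratio was 0.57 ± 0.10 (SE; adjusted p = 0.00497 by edgeR), and the adjusted p was 0.0658 without KO D5133. Next were Pabpc1 at 0.24, the poly(A)-binding protein, and Eif3e at -0.13, neither called. Of 32 nucleolar assembly genes, 0 were called in either tissue. Nhp2, a protein of the particles that make pseudouridine in rRNA, had 21.7, 19.6 and 21.4 CPM in neocortex KO libraries and 25.9, 29.3 and 24.2 CPM in controls (-0.34 ± 0.09; edgeR adjusted p = 0.0561). CA1 levels were 18.5 and 18.3 CPM in KO libraries and 24.0, 21.8 and 23.9 CPM in controls (-0.33 ± 0.09; edgeR adjusted p = 0.069). Its KO libraries lay below all controls in both tissues. Nop10 and Rrs1 followed in the neocortex (-0.28 and -0.23), and Heatr1 and Dkc1 in the CA1 (-0.17 and -0.19).

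Of 20 RNA polymerase I genes, 1 fell in the neocortex and 0 were called in the CA1. Polr2e, a subunit shared by the nuclear RNA polymerases, had 43.1, 44.2 and 41.5 CPM in neocortex KO libraries and 51.0, 54.7 and 49.5 CPM in controls (-0.27 ± 0.06; edgeR adjusted p = 0.0435). Leaving out 1 library in turn gave adjusted p from 0.0436 to 0.241. Polr2f and Polr1b were at -0.21 and -0.21 there, and in the CA1 Taf1c, Polr2e and Taf1d were at 0.35, -0.10 and -0.17. Of 20 genes of mTORC1 signalling, 0 were called in either tissue. Larp1, the protein that binds TOP mRNAs, had 180, 186 and 191 CPM in neocortex KO libraries and 161, 156 and 167 CPM in controls (0.20 ± 0.05; edgeR adjusted p = 0.0554). CA1 levels were 190 and 197 CPM in KO libraries and 175, 169 and 160 CPM in controls (0.20 ± 0.06; edgeR adjusted p = 0.0822). Its KO libraries were above all controls in both tissues. Lamtor1 and Larp4b were at -0.20 and 0.22 in the neocortex, and Tsc2 and Ddit4 at 0.14 and 0.22 in the CA1.

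The 77 mitochondrial ribosomal protein genes, which build the separate ribosome of mitochondria, had 0 calls in both tissues. Their median was -0.12 in the neocortex, with 69 of 77 below 0, and -0.07 in the CA1, with 62 of 77 below 0. In the neocortex 19 (24.7%) were lower at an unadjusted p under 0.05, beside 9.02% of all genes tested. Without control D5134, the highest control for these genes, the median was -0.07 and 10 (13.0%) were below that p, beside 8.25% of all genes. Without KO D5130 there were 12 (15.6%), beside 7.52%, and without KO D5133 there were 9 (11.7%), beside 5.49%. The other left-out fits did not lower the count. It was 24 (31.2%) without control D5129, beside 8.07%, and 21 (27.3%) without control D5135, beside 8.48%. Without KO D5132 it was 19 (24.7%), beside 7.53%. In the CA1 4 (5.19%) were lower at that p, beside 7.78%, and 1 or 2 were without any 1 of the 3 controls. With KO D5130 or KO D5133 left out, the CA1 median of these genes was -0.0942 or -0.0503. Their summed level was 1872 to 1975 CPM in neocortex KO libraries and 2016 to 2229 CPM in controls, and 1873 to 1961 CPM in CA1 KO libraries and 1985 to 2034 CPM in controls. The groups did not overlap in these sums in either tissue. Over coding genes outside the members, grouped by longest transcript, the neocortex median was -0.11 under 1000 bases (68% below 0). It was -0.07 from 1000 to 2000 bases (66.1%) and 0.05 from 4000 bases up (35.3%). The part of gene length in the values of the 77 genes was not tested. By p, Mrpl20, Mrps12 and Mrps18a led in the neocortex at -0.26, -0.27 and -0.24, with edgeR adjusted p from 0.0659 to 0.0834. The median over pseudogenes with enough reads was -0.09 in the neocortex (31 tested) and -0.01 in the CA1 (35 tested), with 0 called.

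Some cell type markers moved with genotype in the same libraries. In the CA1, 5 of 9 microglial markers were called higher, with sums of 364.6 to 407.1 CPM in KO libraries and 264.1 to 277.6 CPM in controls. There 2 of 7 astrocyte markers were called higher (2641 to 2839 CPM in KO libraries, 2131 to 2221 CPM in controls). In the same tissue 6 of 7 oligodendrocyte markers were called lower (2819 to 2836 CPM in KO libraries, 3405 to 4139 CPM in controls). Excitatory neuron markers had 1 of 7 called lower in each tissue, with neocortex sums of 4849 to 4948 CPM in KO libraries and 5539 to 5610 CPM in controls, and CA1 sums of 4589 to 5035 CPM in KO libraries and 5104 to 5769 CPM in controls. In the neocortex, 3 of 9 microglial markers were called higher (395.9 to 433.9 CPM in KO libraries, 372.3 to 398.9 CPM in controls). These sums overlapped between the groups. Of the 9 markers, 5 were above 0 and 4 below, and 1 was lower at an unadjusted p under 0.05 by edgeR. Genes of tissue beside the dissected part moved too. Striatal markers had 3 of 7 called lower in the neocortex (150.4 to 159.3 CPM in KO libraries, 190.7 to 235.1 CPM in controls). Markers of meninges and choroid plexus had 2 of 7 called higher in the CA1 (190.4 to 222.8 CPM in KO libraries, 88.5 to 92.9 CPM in controls). None of these lists had a marker at 0 in all libraries of a group. The part of these cell types in the ribosomal protein values was not tested.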

How the data were processed

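Polyadenylated RNA was sequenced from 11 libraries of 7 animals. The values are the deposited gene counts, whole reads per Ensembl gene, not normalized by the authors. Per the labels' protocols, neocortex libraries were stranded and carried ERCC RNAs, and CA1 libraries were unstranded, so overlapping genes cannot be told apart there. FastQC, GSNAP, SAMtools and bedtools with GRCm38 are named, per the submitters' processing notes; the counting rule is not given in the sources used here. Symbols and positions came from GENCODE M21 on GRCm38 (37693 of 39017 identifiers matched).

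Each tissue was fitted alone with edgeR 4.0.16 in R 4.3.3 (TMM, filterByExpr, robust quasi-likelihood F-test, two-sided, Benjamini-Hochberg over all genes tested, threshold 0.05). SE is the absolute log2 fold change over the square root of F, and intervals are 95%. DESeq2 1.42.0, other scalings, filters, a length offset, ERCC sets and left-out libraries were alternatives. The methods were tested on simulated counts. Members and lists were chosen with earlier results of these data known. Named genes follow a rule: the smallest p per tissue or list, the highest and lowest levels, paralogues, stalk genes and a few of known function. A few genes taken by it go unnamed here but are counted. The pair of CA1 libraries high together, Rps19 and the bounding examples were picked after their values were seen.

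The labels give 4 animals both tissues. Over 16544 genes, deviations from the group mean correlated between the tissues of 1 animal at 0.111, 0.116, 0.138 and 0.143, so animal was a block in an alternative. No libraries of a group were copies (chi-square per gene 9.46 to 20.6). Within 1 tissue, p-values measure the spread between animals. The main fit of the difference between tissues took the 11 libraries as independent, although 4 animals gave both tissues. Its p-values therefore mix the spread within and between animals.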

Additional observations from a re-analysis of the deposited data

How the results depend on the processing

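No member was called in either tissue or in the difference between tissues under any alternative that was run, and the lowest adjusted p of a named member was 0.056 in the neocortex, 0.0785 in the CA1 and 0.122 for the difference. With 1 library left out in turn, the members' median log2 fold change ranged from -0.129 to -0.000925 in the neocortex (without control D5135 and without control D5134), from -0.0221 to 0.0642 in the CA1 (without control D5135 and without control D5138), and from 0.0201 to 0.139 for the difference (without the CA1 controls D5135 and D5138). That of the mitochondrial ribosomal protein genes ranged from -0.139 to -0.066 in the neocortex (without controls D5135 and D5134) and from -0.0942 to -0.0503 in the CA1 (without the KO libraries D5130 and D5133). Scaled by the ERCC RNAs, the neocortex median was 0.925, with Rpl22l1 at 0.742 and Polr2e at 0.746, no longer called; all genes moved to 1.06, so the members lay 0.135 below them (-0.135). The animal replicate block, paired by the labels' animal names, gave a median difference of 0.177 with 0 calls. Signs of named members changed in 32 of 270 values in the neocortex, 14 of them under ERCC scaling, in 13 of 170 in the CA1 and in 0 of 96 for the difference. The median level in controls depended on the length used. It was 18 CPM per kilobase of all exons in the neocortex, 27.6 by the longest transcript and 33.8 by the principal transcript. In the CA1 it was 16.3, 26.4 and 32.6. The principal transcript, the members with at least 80% of their own windows the fit without animal D5134, the span without Rpl3l and the mitochondrial fits with a library left out were chosen after seeing the data. With 2 CA1 KO libraries, leaving out 1 assumes that the other varies like the controls, and the 95% interval reached beyond 1.5-fold for 10 of the 79 members there.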
